A study of Mus musculus with 4 samples.

Results

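The genes described here are 8 genes of embryonic red blood cell formation, chosen by symbol from a table of raw read counts of 24421 genes. They are the embryonic globins Hba-x, Hbb-bh1 and Hbb-y, the heme synthesis enzyme gene Alas2, the transcription factor genes Klf1, Gata1 and Gfi1b, and Epor, the gene of the erythropoietin receptor. All 8 had a row in the table and reached the minimum of 10 reads in at least 1 library, as did 14393 genes in all. Hba-x and Hbb-y reached it through the E8.5 wild-type library alone.

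Polyadenylated RNA was sequenced in 4 libraries made from whole ICR mouse embryos. Wild-type embryos gave 1 library collected on embryonic day 7.5 (E7.5 WT) and another from embryonic day 8.5 (E8.5 WT), and Ddx6 -/- embryos of embryonic day 8.5 gave 2 (KO1 and KO2). Reads given below in series of 4 stand in this order. DDX6 is an RNA helicase that acts in translational repression and mRNA decay. Per the study's methods, the null allele lacked a floxed exon removed by a ubiquitously expressed Cre, and the knockout embryos came from heterozygous crosses. The study's text states that each KO library was a pool of embryos and that the pools differed in morphological stage. Embryos before head-fold formation made up all of KO2 and a part of KO1, so genotype and stage cannot be told apart in the comparison with E8.5 WT, and E7.5 WT serves as a second reference. The methods also state that extraembryonic tissue or yolk sac was taken from embryos for genotyping.

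The first red blood cells of the mouse embryo, the primitive erythroblasts, arise in the blood islands of the yolk sac and then enter the circulation when the heart starts to beat. Their hemoglobin pairs zeta globin, encoded by Hba-x, with beta-like chains encoded by Hbb-bh1 and Hbb-y, and these genes are later replaced by adult globins. GATA1 and KLF1 activate globin and heme genes in these cells, GFI1B is a repressor needed for their maturation, and erythropoietin acts through its receptor on their survival and growth.

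Gene positions are those of the GENCODE annotation of GRCm38, the assembly also called mm10 and named as the build in the submitters' processing notes. Hba-x lay in the alpha-globin cluster at chr11:32276400-32278116 on the plus strand. Hbb-bh1 at chr7:103841637-103843164 and Hbb-y at chr7:103851749-103853216 lay in the beta-globin cluster on the minus strand. Alas2 was at chrX:150547375-150570638 and Klf1 at chr8:84901928-84905291, both on the plus strand. Gata1 at chrX:7959260-7978071, Gfi1b at chr2:28609450-28621982 and Epor at chr9:21958897-21963506 were on the minus strand. Counts were over all exons of each gene.

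Promoter windows of 300 bases around the transcription start were at hand for 7 of the 8 genes, all but Hbb-bh1, from RefSeq on GRCm38.p6. The windows of Hba-x (chr11:32276350-32276649, plus strand), Hbb-y (chr7:103853158-103853457, minus strand), Klf1 (chr8:84901732-84902031, plus strand) and Alas2 (chrX:150547167-150547466, plus strand) are shown because their genes cover both globin clusters, a globin regulator and heme synthesis. Capitals mark matches, on either strand, to the letters AGATAA or TGATAA, which GATA factors bind, to CACCC, which KLF1 binds, and to CCAAT.
Hba-x: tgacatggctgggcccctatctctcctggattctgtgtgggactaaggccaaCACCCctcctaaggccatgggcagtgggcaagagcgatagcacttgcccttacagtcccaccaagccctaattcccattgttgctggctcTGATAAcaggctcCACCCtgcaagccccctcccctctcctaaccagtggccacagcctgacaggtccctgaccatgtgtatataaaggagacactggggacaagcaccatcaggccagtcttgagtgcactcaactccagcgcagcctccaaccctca
Hbb-y: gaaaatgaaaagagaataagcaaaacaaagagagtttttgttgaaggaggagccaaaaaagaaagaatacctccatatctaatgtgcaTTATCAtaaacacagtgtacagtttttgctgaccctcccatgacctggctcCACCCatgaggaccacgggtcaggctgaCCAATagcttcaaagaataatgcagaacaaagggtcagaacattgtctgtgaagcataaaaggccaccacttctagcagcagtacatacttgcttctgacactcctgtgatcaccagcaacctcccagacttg
Klf1: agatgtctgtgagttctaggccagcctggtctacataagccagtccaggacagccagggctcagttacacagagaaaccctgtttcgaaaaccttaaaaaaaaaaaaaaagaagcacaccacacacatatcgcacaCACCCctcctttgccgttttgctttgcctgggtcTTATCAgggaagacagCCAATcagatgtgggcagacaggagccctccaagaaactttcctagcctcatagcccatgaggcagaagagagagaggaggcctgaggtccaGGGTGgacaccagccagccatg
Alas2: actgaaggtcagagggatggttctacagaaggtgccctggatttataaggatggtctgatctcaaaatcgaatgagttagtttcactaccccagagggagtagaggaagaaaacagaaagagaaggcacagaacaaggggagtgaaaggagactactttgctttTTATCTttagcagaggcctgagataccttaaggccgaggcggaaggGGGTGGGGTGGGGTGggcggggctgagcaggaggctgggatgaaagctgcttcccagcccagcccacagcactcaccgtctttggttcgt

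A GATA match was found in 6 of the 7 windows, all but that of Gata1, against 18.6% of all 32851 windows of this length. It began 108 bases before the start in Hba-x, 162 in Hbb-y, 80 in Klf1, 86 in Alas2, 120 in Gfi1b and 54 in Epor, whose RefSeq start lies outside the GENCODE gene given above. CACCC was present in 7 of 7 windows, against 57.5% of all windows, and Alas2 held 3 matches side by side, the farthest of them 40 bases before the start. CCAAT was found in 3 of 7, those of Hbb-y, Klf1 and Gfi1b, against 37.4% of all windows. No motif overlapped another in these windows. A match describes the letters and does not show binding.

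Library totals were 12095555 and 12562640 counts for the wild types, the earlier stage first, and 8198402 and 12008252 for KO1 and KO2. Ddx6 itself, the targeted gene, had 2943, 5715, 706 and 929 reads in this order, with log2 changes of -2.46 (KO1) and -2.61 (KO2) relative to E8.5 WT, and was thus lower where the labels give the knockout. Reads of the 8 genes together numbered 500, 3147, 66 and 142, or 41.3, 250.5, 8.05 and 11.8 reads for each 1000000 counts. Levels are given as reads or as CPM, which are counts scaled to a library of 1000000 with normalization factors of the TMM method (trimmed means of log ratios between libraries). Folds are ratios of scaled reads between 2 libraries with exact 95% intervals of the counts, and these intervals cover counting error only. Log2 changes are differences of log2 CPM with a prior count of 2, which draws low genes toward 0, and a gene was called where the log2 change was above 1 or below -1.

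Embryonic globin transcripts were abundant in E8.5 WT and nearly absent from both KO libraries. Hba-x had 0, 1221, 1 and 0 reads, counted in the order E7.5 WT, E8.5 WT and then the KO libraries. Hbb-bh1, the embryonic beta-like chain that is active earliest, had 23, 1579, 3 and 3 reads. Hbb-y, the other embryonic beta-like chain, had 0, 25, 0 and 0 reads. All 3 globins were thus read mainly from the E8.5 WT library, and Hbb-bh1 alone was also read in E7.5 WT.

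**Figure D1:**
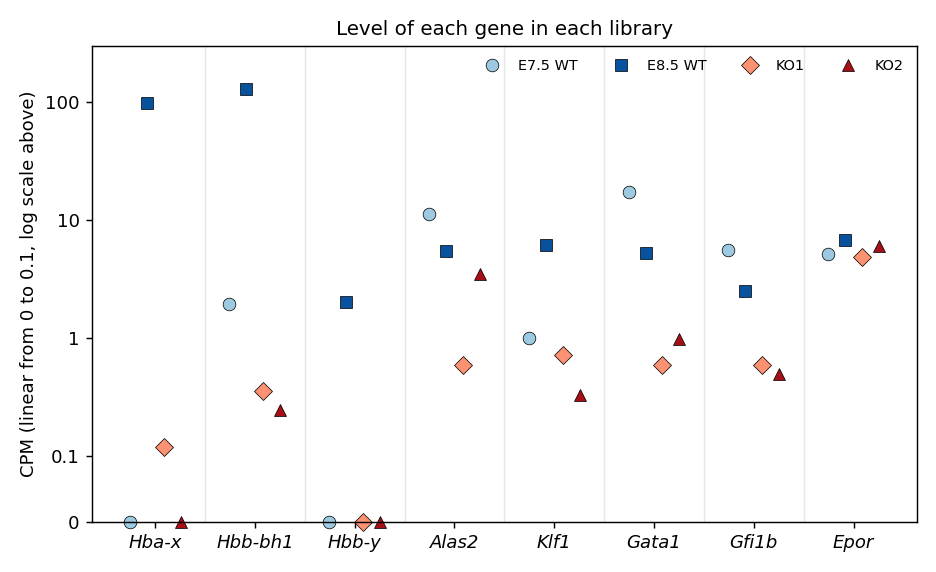
Level of each of the 8 genes in CPM (vertical axis, linear from 0 to 0.1 and logarithmic above), with 1 point for each of the WT and KO libraries. Hba-x and Hbb-bh1 stood at 99.4 and 128 CPM in E8.5 WT and at or below 0.357 CPM in both KO libraries, while the 4 points of Epor lay between 4.88 and 6.75 CPM.

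Compared with E8.5 WT, Hbb-bh1 was 359.6-fold lower in KO1 (95% interval 123 to 1746) and 522-fold lower in KO2 (178 to 2533). Hba-x was 834-fold lower in KO1 (149.5 to 32980), a ratio that rests on 1 read, and at least 404-fold lower in KO2, taking a floor of 3 reads per library for a count of 0. Hbb-y was at least 5.69-fold lower in KO1 and at least 8.26-fold lower in KO2. The shallower KO1 library sets the weaker bound for Hbb-y. With the 3 globins summed, the level was 229.9 CPM in E8.5 WT, 1.93 CPM in E7.5 WT, and 0.476 and 0.246 CPM in the KO libraries. The sum was 483-fold lower than E8.5 WT in KO1 (188 to 1772) and 934-fold lower in KO2 (319 to 4530).

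Globin reads of the KO libraries were also fewer than those of the earlier wild-type stage. Hbb-bh1 was 5.41-fold lower than E7.5 WT in KO1 (1.64 to 28.2) and 7.86-fold lower in KO2 (2.37 to 40.9). Both intervals lie below the E7.5 level, and they are wide because 3 reads were counted in each KO library. Hba-x and Hbb-y were at or under the floor in E7.5 WT and in both KO libraries, so no fold is given for them. In a bulk sample, fewer cells of a type and less RNA per cell cannot be told apart.

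Among the 2825 embryonic globin reads of E8.5 WT, Hbb-bh1 took 55.9% (exact 95% binomial interval 54.0% to 57.7%), Hba-x 43.2% (41.4% to 45.1%) and Hbb-y 0.885% (0.574% to 1.30%). In E7.5 WT all 23 embryonic globin reads were of Hbb-bh1, which leaves an upper limit of 14.8% for Hba-x. The 4 reads of KO1 and the 3 of KO2 were too few to give a make-up. Reads of Hba-x, Hbb-bh1 and Hbb-y could be told from those of the other globins, since none of the 50-base words in their transcripts occurred in another globin transcript of those compared.

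The adult globins are the main globins of definitive red cells. Hba-a1, Hba-a2, Hbb-bt and Hbb-bs were listed at 0 in all 4 libraries. These levels are uncertain, because 67.5% of the 50-base words of Hba-a1 are shared with Hba-a2 and 58.3% of those of Hbb-bt with Hbb-bs, and reads that align to both copies may not have been counted. Of the other globins fixed as a list, 9 of 11 had a row and 0 reached the count minimum. Hbq1b had 2, 3, 0 and 0 reads and Hbb-bh2 0, 2, 0 and 0.

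Klf1 encodes the Kruppel-like factor that activates beta-like globin genes. Its reads numbered 12 and 76 in the WT libraries, the later stage being the higher, and 6 and 4 in KO1 and KO2. The KO libraries lay below both WT libraries, and E8.5 WT stood apart from the other three. Klf1 was 8.65-fold lower than E8.5 WT in KO1 (3.80 to 24.3) and 18.8-fold lower in KO2 (7.06 to 70.9). Relative to the E7.5 stage, Klf1 was 1.41-fold lower (0.491 to 4.59) and 3.07-fold lower (0.932 to 13.1), and these intervals include no change.

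Gata1 encodes the zinc finger factor required for erythroblast survival and maturation. It had 205 reads in the E7.5 and 65 in the E8.5 wild type, 5 in KO1 and 12 in KO2. Here E7.5 WT was the highest library, and both KO libraries were below both WT libraries. Gata1 was 8.88-fold lower than E8.5 WT in KO1 (3.62 to 28.3) and 5.37-fold lower in KO2 (2.88 to 10.9). The distance to E7.5 WT was larger, 28.9-fold in KO1 (12.2 to 90.1) and 17.5-fold in KO2 (9.81 to 34.4).

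Gfi1b, whose product represses transcription during erythroid and megakaryocytic maturation, had 66, 31, 5 and 6 reads. The order of the libraries was that of Gata1 for the WT stages, and the KO libraries were again the lowest. Gfi1b was 4.24-fold lower than E8.5 WT in KO1 (1.63 to 14.0) and 5.12-fold lower in KO2 (2.11 to 15.02). The E7.5 comparison gave 9.32-fold (3.80 to 29.6) and 11.3-fold (4.91 to 31.8) lower values.

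Alas2 encodes the erythroid form of the enzyme that starts heme synthesis. It had 133 and 67 reads in the E7.5 and E8.5 wild types, 5 in KO1 and 43 in KO2, and it was the member in which the KO libraries differed most. Alas2 was 9.16-fold lower than E8.5 WT in KO1 (3.74 to 29.1) but 1.54-fold lower in KO2 (1.04 to 2.32). On the log2 scale the KO libraries averaged -1.73 ± 1.60 (SD, n = 2) relative to E8.5 WT. Relative to the E7.5 stage it was 18.8-fold lower in KO1 (7.85 to 58.8) and 3.17-fold lower in KO2 (2.23 to 4.58). Of the 8 genes, Alas2 alone passed the fold threshold between the KO libraries, 5.93-fold higher in KO2 (2.35 to 19.2), where 5.99% of all genes tested were higher in KO2 and 4.89%, with 0 of the 8 genes, were lower.

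Epor had 61 and 83 reads in the E7.5 and E8.5 wild types, 41 in KO1 and 74 in KO2, which is 5.13, 6.75, 4.88 and 6.07 CPM. KO2 thus lay between the WT libraries and KO1 just below both. It was 1.38-fold lower than E8.5 WT in KO1 (0.941 to 2.06) and 1.11-fold lower in KO2 (0.803 to 1.54). On the log2 scale the KO libraries averaged -0.30 ± 0.22 relative to E8.5 WT and 0.08 ± 0.22 relative to E7.5 WT (SD, n = 2). The intervals do not show equal levels, since they allow Epor to be up to 2.06-fold lower in KO1.

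**Figure D2:**
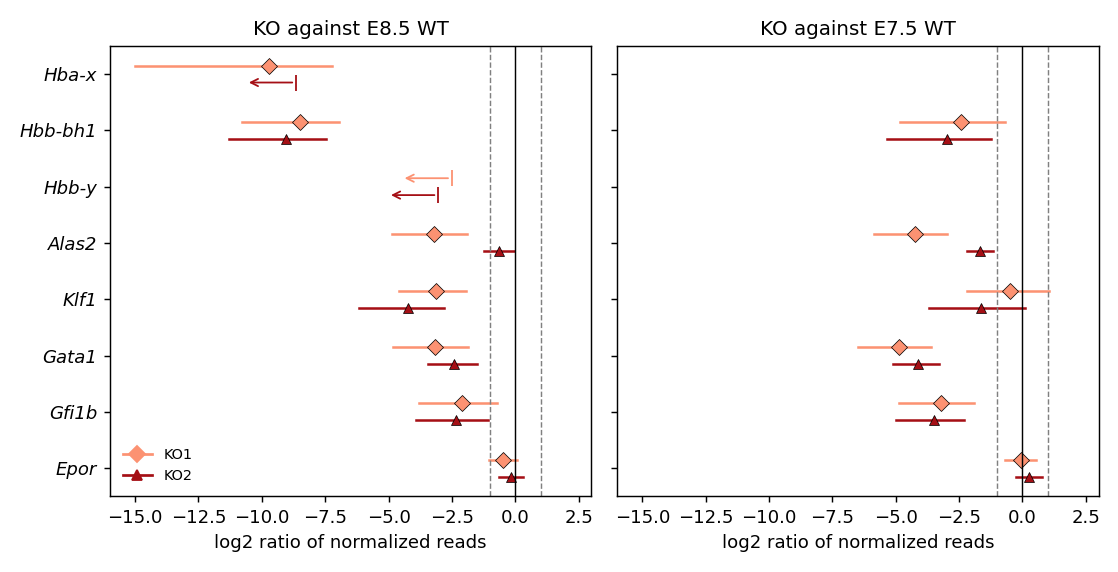
Log2 ratio of scaled reads in KO1 and KO2 (horizontal axis) for each of the 8 genes, against E8.5 WT (left) and E7.5 WT (right). Points are ratios, lines exact 95% counting intervals, arrows start at the ratio for the floor of 3 reads where a KO library had 0 reads, pairs at or under 3 reads are left out, and dashed lines mark the thresholds of -1 and 1. In the left panel the intervals or floor ratios of Hba-x, Hbb-bh1, Hbb-y, Klf1 and Gata1 lie below -1 in both KO libraries, and those of Epor include 0.

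By the fold rule, 6 of the 8 genes were lower than E8.5 WT in both KO libraries, namely Hba-x, Hbb-bh1, Hbb-y, Klf1, Gata1 and Gfi1b, and 1.79% of all genes tested were. None of the 8 was higher in both, as 3.44% of all genes were. Hba-x and Hbb-y were tested only because of their E8.5 WT reads, so they could hardly have come out otherwise. Among genes that reached the count minimum in another library too, 4 of 6 members and 1.20% of all 14169 such genes were lower. Taken alone, KO1 was lower than E8.5 WT in 7 of the 8 genes, Alas2 being added, and in 3.31% of all genes, and KO2 in 6 of 8 and in 5.91%. Against E7.5 WT, 4 of 8 were lower in both KO libraries, Hbb-bh1, Alas2, Gata1 and Gfi1b, beside 2.70% of all genes, and 0 were higher, beside 6.91%. Taken alone, KO2 was lower than E7.5 WT in 5 of the 8, Klf1 being added, and in 4.06% of all genes, and KO1 in 4 of 8 and in 7.45%. The KO libraries were both below both WT libraries in CPM for 5 of the 8 genes, Hbb-bh1, Alas2, Klf1, Gata1 and Gfi1b, and for 17.6% of all genes tested.

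In the quasi-likelihood test of edgeR with Benjamini-Hochberg adjustment, the spread was taken from the KO libraries alone and each lone WT library was assumed to vary like them. Nothing in the labels states that libraries of a group are independent, so these p-values measure the spread between these samples. Of the 14393 genes, 0 (0%) passed an adjusted p of 0.05 against E8.5 WT. At an unadjusted p under 0.05, 1052 genes passed in either direction, 2.96% of all genes tested were lower, and 6 of the 8 genes were among these, the 6 that met the fold rule. The smallest adjusted p in this test belonged to Hbb-bh1 (edgeR adjusted p = 0.0839, log2 change -8.72), followed among the 8 by Hba-x (edgeR adjusted p = 0.196). For Hbb-y, Klf1, Gata1 and Gfi1b it was 0.666 in edgeR, for Alas2 0.702 and for Epor 0.834. DESeq2 called 31 genes, of which 2 were members, Hbb-bh1 with an adjusted p of 1.25e-27 and Hba-x with 2.66e-10. Since Hba-x and Hbb-y entered the tests through E8.5 WT alone, their p-values against it are given as values and carry no support.

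Against E7.5 WT, edgeR called 0 genes (0%) after Benjamini-Hochberg adjustment and 3511 at an unadjusted p under 0.05. In this test 10.6% of all genes were lower at that unadjusted level, and 3 of the 8 genes were among them. These were Hbb-bh1 and Gata1, each with an edgeR adjusted p of 0.128, and Gfi1b with an edgeR adjusted p of 0.131. DESeq2 called 728 genes, among them Gata1 (adjusted p = 0.00125) and Hbb-bh1 (adjusted p = 0.0161). Against this stage Alas2 had an edgeR adjusted p of 0.237, Klf1 0.47 and Epor 0.906.

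Between the WT stages, with 1 library each and thus no replicate check, the globins and Klf1 were higher at the later stage by more than the fold threshold while Gata1, Gfi1b and Alas2 were lower by more than it. Hbb-bh1 was 66.4-fold higher in E8.5 WT than in E7.5 WT (44.1 to 105), Hba-x at least 394-fold higher, Hbb-y at least 8.06-fold higher and Klf1 6.13-fold higher (3.31 to 12.4). These 4 genes compare with 12.2% of all genes tested. Gata1 was 3.26-fold lower in E8.5 WT (2.45 to 4.38), Gfi1b 2.20-fold lower (1.42 to 3.49) and Alas2 2.05-fold lower (1.52 to 2.79), 3 genes beside 7.82% of all genes. Epor was 1.32-fold higher, with an interval from 0.935 to 1.86 that includes no change.

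Embryonic globin reads per Gata1 read numbered 43.5 in E8.5 WT (95% interval 34.0 to 56.5) and 0.112 in E7.5 WT (0.0696 to 0.173). They were 0.8 in KO1 (0.159 to 3.72) and 0.25 in KO2 (0.0453 to 0.926). The intervals of KO1 and KO2 overlapped that of E7.5 WT near their lower ends, and the intervals of both KO libraries lay far below that of E8.5 WT.

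Levels of different genes were compared per kilobase of the longest RefSeq-matched transcript, as CPM per kilobase (RPKM). In E8.5 WT, Hbb-bh1 stood at 209.6 RPKM and Hba-x at 124, followed by Klf1 at 4.04, Epor at 3.83, Hbb-y at 3.21, Gata1 at 2.78, Alas2 at 2.68 and Gfi1b at 1.38. Neighbours within the run from Klf1 to Alas2 did not differ beyond counting error, Alas2 exceeded Gfi1b 1.93-fold (1.25 to 3.06), Hbb-bh1 exceeded Hba-x 1.69-fold (1.57 to 1.82) and Hba-x exceeded Klf1 30.7-fold (24.3 to 39.2). In E7.5 WT, Gata1 led with 9.06 RPKM, ahead of Alas2 at 5.49, Hbb-bh1 at 3.15, Gfi1b at 3.05, Epor at 2.91 and Klf1 at 0.659, and Hbb-bh1, Gfi1b and Epor could not be put in order. In both KO libraries Epor was the highest of the 8, at 2.77 RPKM in KO1 and 3.45 in KO2. Behind it, no neighbours differed in KO1, where the others lay at or below 0.583 RPKM. In KO2, Alas2 at 1.73 RPKM exceeded Gata1 at 0.518 and the genes below Gata1 did not differ from their neighbours.

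The genes nearest to Hbb-bh1 in their centred log2 CPM profile over the 4 libraries, by Euclidean distance among 11941 genes with at least 50 reads in 1 library, were Hba-x (distance 2.45), 5430431A17Rik (3.33), Tbx4 (3.54), Hoxc4 (3.57) and Hoxa9 (3.62). Klf1 was 12th, at a distance of 3.97. Its distance to Gata1 was smaller, at 3.34, yet by rank from Gata1 it was only 2678th. Tbx4, for instance, had 20, 799, 56 and 5 reads. The nearest to Gata1 were Lincenc1 (0.576), Lgals2 (0.879), Gfi1b (1.15), Apoa1 (1.31) and Apoa2 (1.36), and Alas2 was 11th. Apoa1 and Apoa2, apolipoprotein genes known from visceral endoderm, had 12148, 6739, 1302 and 2002 reads and 471, 302, 54 and 51 reads. Hba-x, Hbb-bh1 and Klf1 were highest in E8.5 WT, and Gata1, Gfi1b and Alas2 in E7.5 WT. Hbb-y had too few reads to be a candidate. These likenesses rest on 4 libraries and are descriptions.

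Beyond the 8 genes, 75 of 77 genes on 5 erythroid lists had a row and 60 were tested. Of these, 8 (13.3%) were lower and 2 (3.33%) higher than E8.5 WT in both KO libraries, beside 1.79% and 3.44% of all genes. Over all genes tested, the median of the log2 changes was -0.0083 for KO1 and -0.0013 for KO2. Leaving out KO1 gave 13 list genes lower than E8.5 WT, and leaving out KO2 gave 9. The rule then asks for 1 KO library only, which more of all genes meet. In the main setting, 5.91% of all genes were lower in KO2 alone and 3.31% in KO1 alone. None of the list genes passed the adjusted threshold in edgeR, which called 0 genes in all.

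Red cell membrane and skeleton genes gave 5 of the 8, out of 14 tested of 18 listed, with a list median of -0.33 in KO1 and -0.76 in KO2. Among these, Epb42 (protein 4.2) had 3, 24, 0 and 2 reads, Ank1 (ankyrin) 7, 72, 13 and 10, and the tropomodulin gene Tmod1 3, 71, 10 and 22. Each of these 3 was highest in E8.5 WT, as the globins were, but 0 of the 14 tested were lower than E7.5 WT in both KO libraries. The share of all genes was 2.70%. Car2, for a carbonic anhydrase found in red cells and many other cells, had 1211, 518, 711 and 1890 reads and passed the threshold upward in KO1 as well as in KO2. Epb41 and Sptb, both also expressed outside red cells, had log2 changes between -0.80 and 0.06 and were not called.

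Among partners and other erythroid transcription factors, 19 of 20 were tested, 2 were lower and 1 higher in both KO libraries, and the medians were 0.07 and -0.15. Nfe2, whose product activates globin genes through the locus control region, had 10, 39, 3 and 5 reads, and Lyl1, a relative of Tal1, had 39, 50, 13 and 8. Bcl11a, a repressor of embryonic beta-like globin genes, had 122, 15, 26 and 192 reads and was higher than E8.5 WT by 1.23 on the log2 scale in KO1 and 3.51 in KO2. The most abundant list members Tcf3, Kdm1a and Ldb1, which are expressed broadly, had log2 changes between -0.21 and 0.16. Tal1 and Gata2, which act before Gata1 in blood formation and were singled out after their values were seen, had 411, 496, 298 and 225 reads and 835, 265, 197 and 442 reads. Tal1 was below the threshold in KO2 (log2 change -1.12) but not in KO1 (-0.18), and Gata2 was within it in both (0.12 in KO1, 0.75 in KO2).

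Of the erythropoietin pathway and survival genes, 11 of 12 were tested, and 1, the survival kinase gene Pim1, was lower in both KO libraries, with 437, 451, 134 and 130 reads. List medians were -0.08 in KO1 and -0.29 in KO2. The transferrin receptor gene Tfrc had log2 changes of -0.72 and -0.47, Bcl2l1 0.19 and -0.05, and Kit 0.30 and -0.10, so none of these was called. All 16 other heme and iron genes were tested, with medians of -0.06 and -0.06 against E8.5 WT. By the fold rule 0 of them were called in either direction in both KO libraries, near the shares of all genes, 1.79% lower and 3.44% higher. Many of these enzymes and carriers, unlike Alas2, serve cells of all kinds, and Cpox, Fth1 and Ftl1 had log2 changes between -0.60 and -0.07. Against E7.5 WT, 2 of the 16 were lower in both KO libraries, beside 2.70% of all genes. They were the ferritin genes Fth1 (log2 changes -1.20 and -1.16) and Ftl1 (-1.04 and -1.10).

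**Figure D3:**
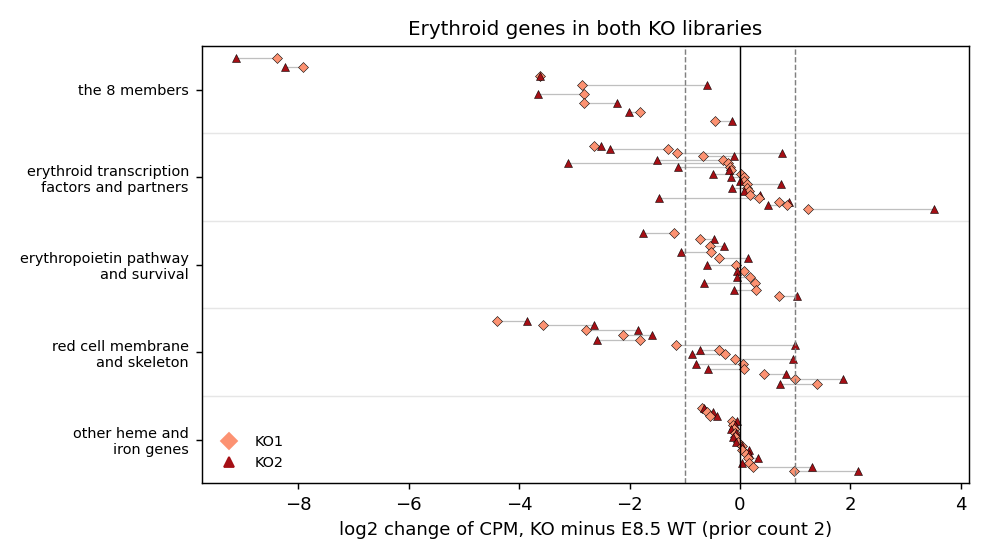
Log2 change of CPM against E8.5 WT (horizontal axis, prior count 2) in KO1 and KO2 for the 8 members and for the 60 tested genes of the erythroid lists, 1 line per gene joining its 2 libraries, with dashed lines at -1 and 1. Membrane and skeleton genes give 5 of the 8 list genes below -1 in both libraries, and the 16 heme and iron genes none, beside 1.79% of all genes tested.

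Markers of other cell types differed between the libraries, and their part in the results above was not tested. Yolk sac visceral endoderm markers, all 10 of 10 tested, summed to 7430 and 7428 CPM in the wild types and to 4380 and 4243 CPM in KO1 and KO2. Of them 3 (Apoa1, Apom and Rbp4) were lower than E8.5 WT in both KO libraries, beside 1.79% of all genes. Lower than E7.5 WT in both were 5, beside 2.70% of all genes. The list's medians relative to E8.5 WT were -0.89 (KO1) and -0.75 (KO2). Hemangioblast and endothelium markers, 8 of 8 tested, summed to 136.8, 431, 425 and 297 CPM. Against E8.5 WT 0 were called in both KO libraries, near the shares of all genes, 1.79% lower and 3.44% higher. Higher than E7.5 WT in both were 2, beside 6.91% of all genes. Kdr, a receptor gene of the common blood and vessel precursors, had 669, 2259, 1491 and 1255 reads. In KO2 alone, 3 of the 8 markers were below the threshold against E8.5 WT, beside 5.91% of all genes. These were Tek, Tie1 and Eng, which were named after their values were seen, and Tie1 had 34, 304, 136 and 21 reads. Megakaryocyte markers summed to 4.20, 12.0, 5.84 and 2.63 CPM with Gp9 at 0 throughout, and the 1 tested marker, Itga2b, had 41, 134, 47 and 15 reads.

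Leukocyte markers summed to 8.74, 4.56, 4.76 and 16.8 CPM, with 2 of 6 tested. Maternal decidua markers, 4 of 4 tested, summed to 117.5, 15.7, 41.7 and 129 CPM. Prl8a2 had 1318, 26, 64 and 1433 reads and made up most of the sum in E7.5 WT and KO2. In E8.5 WT and KO1 the largest part came from Col3a1, with 112 and 232 reads. Trophoblast giant cell markers, 3 of 4 tested with Prl3b1 at 0 throughout, summed to 219, 181, 423 and 786 CPM, and Prl3d1 had 27, 1, 3 and 4156 reads. Hand1, with 2570, 2229, 3544 and 4028 reads, made up nearly all of this sum except in KO2. KO2 thus stood apart in the prolactin-family giant cell genes and lay near E7.5 WT in the decidua markers. KO1 was above E8.5 WT in the decidua and trophoblast sums, mainly through Col3a1 and Hand1, with 3 reads of Prl3d1.

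**Figure D4:**
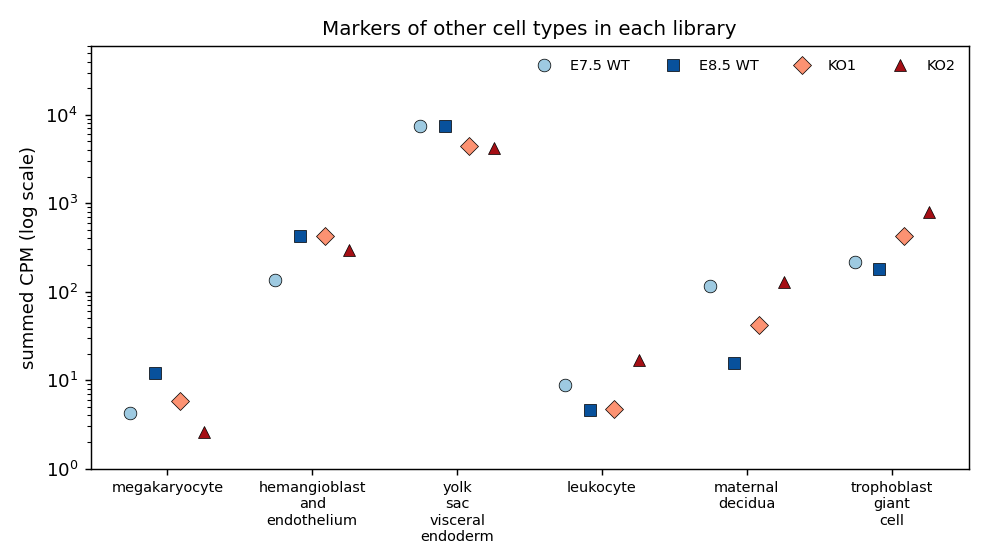
Summed CPM (vertical axis, log scale) of 6 marker lists, with 1 point for each WT and KO library. Visceral endoderm markers lie at 4380 and 4243 CPM in the KO libraries and at 7430 and 7428 in the WT libraries, and trophoblast giant cell markers reach 786 CPM in KO2.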

How the data were processed

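The authors deposited raw counts of reads per gene with no normalization, for 4 libraries of whole embryos grouped by their labels. Per the study's methods, a stranded mRNA kit was used and reads were counted strand-specifically over exons. The submitters' processing notes name cutadapt 2.8, FastQC 0.11.7, HISAT2 2.1.0, SAMtools 1.9 and featureCounts 2.0.0, and the build mm10. The notes name no treatment of reads that align to several places, which bears on near-identical globins.

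Counts were scaled by TMM in edgeR 4.0.16 (R 4.3.3), with factors of 0.983, 0.978, 1.02 and 1.01 for the wild types (E7.5, then E8.5) and the KO libraries (KO1, then KO2). Genes with at least 10 counts in 1 library were kept. Calls used the authors' log2 threshold of 1 in each KO library. Intervals are exact Clopper-Pearson (95%), and since no molecular identifiers were used, reads need not stand for separate molecules. The tests were two-sided quasi-likelihood tests of edgeR with 3 groups. Scripts were tested on simulated data. Alternatives were DESeq2 1.42.0, other scalings, count minimums, both WT libraries as 1 group, a prior count of 0.5, a threshold of 2, and each KO library left out. Positions, motifs and orders were computed in Python 3.11.15 with SciPy 1.17.1, and figures with matplotlib 3.10.9.

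The members and lists (other globins, transcription factor partners, erythropoietin pathway, membrane, heme and iron, and 6 marker lists) were chosen with earlier results of these data known. Named were the 8 members, Ddx6, list genes called in both KO libraries or among the 3 most abundant of a list, and the 5 nearest profiles to Hbb-bh1 and Gata1. Values of some single genes that meet this rule are not reported here.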

Additional observations from a re-analysis of the deposited data

How the results depend on the processing

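Of the summary results, 41 values stayed within the limits set for them under the alternatives tried and 10 moved, and none reversed. The members lower than E8.5 WT in both KO libraries numbered 6 under each scaling and prior count tried, 5 with a minimum of 50 counts, where Hbb-y was no longer tested, and 5 at a log2 threshold of 2, where Gfi1b was lost. At that threshold 2 members were lower than E7.5 WT (Gata1 and Gfi1b), 4 differed between the WT stages and 3 list genes were lower than E8.5 WT. With a minimum of 50 counts 4 list genes were lower, from fewer genes tested. Leaving out 1 KO library gave 9 to 13. In the main setting, KO1 alone was lower in 3.31% of all genes and KO2 alone in 5.91%. For the other alternatives no share of all genes is given, so their counts have no background beside them. A prior count of 0.5, which draws low genes toward 0 less than the prior count of 2, put 3 members past the threshold between the KO libraries. Apart from Alas2, the counting intervals between the KO libraries included no change for every member with reads there. With no filter, edgeR called 2 members against E8.5 WT (Hbb-bh1, adjusted p = 0.000339, and Hba-x, 0.00216) and 2 against E7.5 WT (Gata1, 0.0279, and Hbb-bh1, 0.032). DESeq2 also called 2 in each comparison. Over the alternatives that compared KO with E8.5 WT, the adjusted p of Hbb-bh1 ran from 1.25e-27 to 0.145 and that of Hba-x from 2.66e-10 to 0.338, and with both WT libraries as 1 group both were 0.9. That of Gata1 against E7.5 WT ran from 0.00125 to 0.131. So the calls of these genes depend on the filter and the tool. The counts of 0 to 12 reads in the KO libraries, other than those of Epor and of Alas2 in KO2, limit every ratio of these genes. No paired analysis was possible because the groups compared share fewer than 2 replicate numbers.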
